A study of Mus musculus with 3 samples.

Results

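Immediate early genes and heat shock genes are the stress genes that a kidney cell switches on within minutes of a disturbance, and 35 of them (25 immediate early genes and 10 heat shock genes, of 27998 genes measured) were followed here through the cell classes of the folic acid (FA) model. The members were chosen by name, with earlier results of these data known. Shares of members set beside shares of all genes are therefore descriptions. Among the members were the AP-1 subunits Fos, Fosb, Jun, Junb, Jund and their relative Atf3, and the EGR factors Egr1, Egr2 and Egr3. Also among them were the orphan nuclear receptors Nr4a1 and Nr4a2, the Kruppel-like factors Klf2, Klf4 and Klf6, and Myc. The feedback genes were Zfp36, Dusp1, Socs3 and Nfkbia, and the rest of the early genes Ier2, Ier3, Ier5, Btg2, Gadd45b and Gadd45g. The chaperone genes were Hspa1a, Hspa1b, Dnajb1, Hsph1, Hsp90aa1, Hspa8, Hsp90ab1, Dnaja1, Hspe1 and Hspd1. All 35 were found in the gene lists of the 3 libraries. Kidney cells of 2 Aoah-/- mice (replicates 2 and 3, called mouse 2 and mouse 3) and of 1 WT mouse (replicate 3) were profiled by droplet single-cell RNA sequencing on day 14 after FA, at an age of 6 to 8 weeks. The Aoah deletion is global, on a C57BL/6J background, and the control was a littermate. Every mouse received FA, so there was no kidney without injury. Each kidney was perfused, minced and digested with 1 mg/ml collagenase IV for 40 min at 37 °C before capture, so RNA made in the animal and RNA made during digestion cannot be told apart in any value that follows.

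An immediate early gene is transcribed from factors already present in the cell, without new protein synthesis, and its short-lived mRNA usually disappears again soon after. The AP-1, EGR and NR4A genes encode transcription factors, and the feedback genes help to end the response: Zfp36 makes cytokine mRNAs decay, Dusp1 removes phosphate from MAP kinases, Socs3 blocks cytokine receptor signalling and Nfkbia holds NF-kappaB in the cytoplasm. The heat shock genes are driven by heat shock factor 1 when proteins unfold, and their products refold them: Hspa1a and Hspa1b are the inducible HSP70 genes, Hspa8 is the HSP70 that cells make without stress, Dnajb1 and Dnaja1 are J-domain cochaperones that hand clients to HSP70, Hsph1 is its nucleotide exchange factor, Hsp90aa1 and Hsp90ab1 encode HSP90, and Hspe1 and Hspd1 encode the chaperonin pair of the mitochondrion. Warm enzymatic digestion of a tissue is known to induce both sets.

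Some of the promoters hold the letters by which heat shock and cAMP-responsive genes are known, and a few are shown for that reason. Of the 35 members, 28 had a promoter window in the RefSeq table (build GRCm38.p6; Egr1, Egr3, Ier2, Myc, Hsp90aa1, Hspa8 and Hsp90ab1 had none), and the 250 bases before the start were searched on both strands. A pair of heat shock units (GAANNTTC or TTCNNGAA) stood in 5 of 7 heat shock promoters, namely those of Dnaja1, Hspa1a, Hspa1b, Hspe1 and Hsph1, in 1 of 21 early promoters (Jun), and in 12.9% of the promoters of 27025 genes. The form with 3 adjoining units, which contains the pair, stood only in Hspe1 among the members and in 0.400% of all promoters. The short cAMP response letters TGACG stood in 10 of 21 early promoters, those of Atf3, Btg2, Dusp1, Fos, Fosb, Junb, Klf2, Klf4, Nr4a1 and Nr4a2, in 2 of 7 heat shock promoters (Dnajb1 and Hspe1) and in 17.9% of all. The full palindrome TGACGTCA, which holds the short form on both strands, stood in Btg2 and Dusp1 and in 1.62% of all, TATAAA in Fos, Gadd45b, Gadd45g and Nr4a2 and in 13% of all, and the AP-1 letters TGANTCA in no member promoter and in 6.87% of all. In the 5 heat shock stretches that follow, 5′ to 3′, capitals mark the heat shock units. They lie at chr17:34972157-34972306 (Hspa1a, minus strand), chr17:34959239-34959388 (Hspa1b, minus strand), chr5:149636352-149636381 (Hsph1, minus strand), chr4:40722333-40722362 (Dnaja1, plus strand) and chr1:55088053-55088082 (Hspe1, plus strand). The Hspe1 stretch lies in an annotated exon of Hspd1, the neighbour read in the other direction, that of Dnaja1 in annotated exons of Gm6297 and of Dnaja1 itself, and that of Hsph1 in part in an exon of Hsph1.
Hspa1a: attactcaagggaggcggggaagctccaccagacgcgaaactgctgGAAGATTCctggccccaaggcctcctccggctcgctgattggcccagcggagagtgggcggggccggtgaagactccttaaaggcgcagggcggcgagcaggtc
Hspa1b: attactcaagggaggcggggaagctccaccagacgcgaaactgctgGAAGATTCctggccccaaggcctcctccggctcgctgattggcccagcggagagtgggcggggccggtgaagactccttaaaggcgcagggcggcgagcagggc
Hsph1: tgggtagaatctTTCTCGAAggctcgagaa
Dnaja1: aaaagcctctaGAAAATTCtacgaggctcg
Hspe1: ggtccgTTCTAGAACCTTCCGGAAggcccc

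The Hspa1a and Hspa1b promoters were identical at 149 of 150 bases, and the genes themselves lie close together on chromosome 17 (chr17:34969190-34972156 and chr17:34956436-34959238) as near-identical copies, so the split of reads between them is uncertain. In the 3 early promoters that follow, capitals mark TGACG on either strand and TATAAA: chr12:85473740-85473889 (Fos, plus strand), chr15:101266696-101266845 (Nr4a1, plus strand) and chr17:26508523-26508622 (Dusp1, minus strand).
Fos: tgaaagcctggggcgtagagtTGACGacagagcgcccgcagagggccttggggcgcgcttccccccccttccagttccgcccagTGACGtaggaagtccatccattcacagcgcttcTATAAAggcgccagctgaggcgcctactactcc
Nr4a1: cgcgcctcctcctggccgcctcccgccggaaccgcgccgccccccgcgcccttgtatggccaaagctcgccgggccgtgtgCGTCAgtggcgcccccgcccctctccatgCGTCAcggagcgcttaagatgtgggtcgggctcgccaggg
Dusp1: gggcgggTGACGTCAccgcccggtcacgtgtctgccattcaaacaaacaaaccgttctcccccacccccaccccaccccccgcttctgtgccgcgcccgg

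The libraries held 25516 barcodes and 167222984 unique molecular identifiers (UMIs, tags that count each captured RNA once) for Aoah-/- mouse 2, 24693 barcodes and 161015021 UMIs for Aoah-/- mouse 3 and 23072 barcodes and 158551992 UMIs for the WT mouse. The lowest barcode held 500 UMIs in Aoah-/- mouse 2 and the WT mouse and 1672 in Aoah-/- mouse 3, so small cells were not called alike. Aoah itself stood at 6.06 and 5.68 UMIs per 1000000 UMIs of the library or class (CPM) in the Aoah-/- libraries and at 15.3 CPM in the WT library. After filters 21368, 19692 and 18202 cells remained, and 19 classes had at least 50 cells in each library. Their names end in -like because they rest on marker genes alone. Pairs of libraries shared 171 to 176 barcodes, 0.670% to 0.763% of either library, and cells without a class name held 13.6%, 12.3% and 7.46% of the UMIs. The members and the related genes were kept out of the genes that formed the clusters. Libraries are given below in the order Aoah-/- mouse 2, Aoah-/- mouse 3, WT mouse.

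Among the 19 named classes of the FA kidneys, the early genes were most abundant in granulocyte-like cells. By the mean over the libraries they were least abundant in PTEC-like and erythroid-like cells. In Aoah-/- mouse 3, erythroid-like cells stood at 5104 CPM, above PTEC-like and distal convoluted tubule-like cells (3155 and 3741 CPM). Their 25 genes summed to 25227, 24966 and 26361 CPM in granulocyte-like cells. The sum was 18576, 22421 and 19213 CPM in macrophage-like cells and 3413, 3155 and 3527 CPM in PTEC-like cells. Granulocyte-like cells were the highest class in each library and did not overlap any other class, whereas the next classes interleaved between libraries, with urothelial-like cells at 16371, 18314 and 20665 CPM and intercalated-like cells at 16528, 17919 and 18114 CPM. Fibroblast-like cells reached 15773, 13448 and 24325 CPM, the widest gap between libraries among the high classes. Some cells without a class name had sums as high as granulocyte-like cells, those led by Lcn2, Wfdc2 and Clu 27406, 24690 and 26506 CPM. The order of the 19 classes was alike between libraries, with a rank correlation of 0.92 between the Aoah-/- libraries and of 0.89 and 0.80 between each of these and the WT library.

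**Figure D1:**
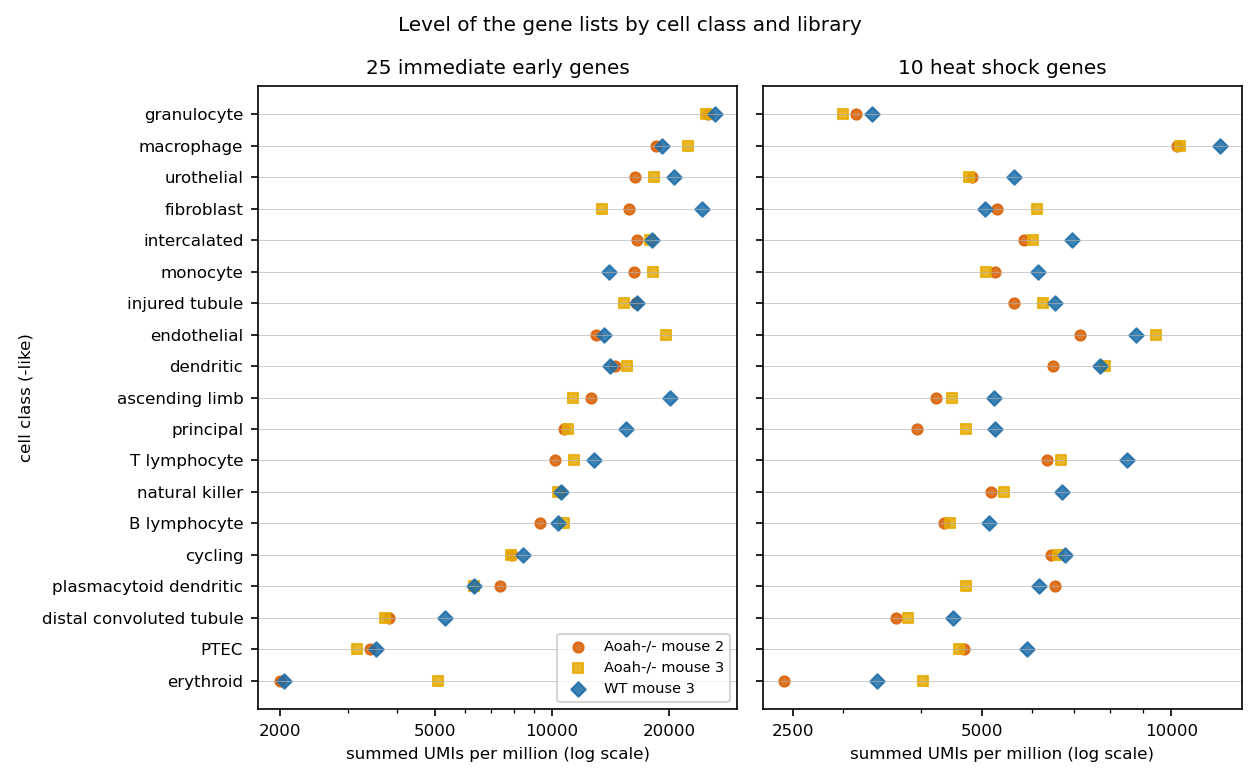
Summed level of the 25 immediate early genes (left) and the 10 heat shock genes (right) in CPM on a log axis, for the 19 cell classes ordered by their early gene level; each point is 1 library. Early genes run from 26361 CPM in granulocyte-like cells of the WT mouse down to 2000 CPM in erythroid-like cells of Aoah-/- mouse 2, and the WT library lies to the right of both Aoah-/- libraries for heat shock genes in 14 of 19 classes.

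The heat shock genes followed another order. Their 10 genes summed to 10194, 10323 and 11956 CPM in macrophage-like cells, the highest class, and to 3147, 3008 and 3337 CPM in granulocyte-like cells, where the early genes were highest. Endothelial-like cells came next at 7154, 9458 and 8798 CPM, and PTEC-like cells stood at 4681, 4597 and 5889 CPM. Over the 19 classes the rank correlation of the early and the heat shock sums was 0.25, 0.43 and -0.01 in the 3 libraries. Within a library these points share a digestion, a depth and a total, and they are given as a description.

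Single members show which cells carried each sum. Junb, an AP-1 subunit, stood at 3586, 3623 and 3785 CPM in granulocyte-like cells and at 120, 145 and 85.4 CPM in PTEC-like cells. Nfkbia, the NF-kappaB inhibitor, stood at 2654, 2660 and 3793 CPM in granulocyte-like cells and at 55.9, 55.5 and 39.5 CPM in PTEC-like cells. Dusp1, the MAP kinase phosphatase, reached 2568, 2454 and 2423 CPM in granulocyte-like and 431, 339 and 514 CPM in PTEC-like cells. These 3 genes, with Ier3, Btg2 and Gadd45b, had their highest mean level in granulocyte-like cells, as 6 of 35 members did. Of all genes, 6.62% (of 7437 with a mean of at least 10 CPM in at least 10 classes) had their highest level there. Btg2, which slows proliferation, stood there at 2625, 2471 and 2678 CPM, Gadd45b, a stress kinase activator, at 1270, 1627 and 1227 CPM, and Ier3, an early gene tied to cell survival, at 1290, 1270 and 1258 CPM.

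Macrophage-like cells were the highest class for 6 members, Zfp36, Ier5, Hspa1a, Hsph1, Hsp90aa1 and Hspa8, against 1.64% of all genes, though for Ier5, Hspa1a and Hsph1 another class led in at least 1 library. Zfp36 stood there at 1443, 1661 and 1369 CPM and in PTEC-like cells at 152, 169 and 89.9 CPM. Ier5, whose product helps to activate heat shock factor 1, stood at 631, 775 and 699 CPM in macrophage-like and at 28.6, 34.8 and 29.4 CPM in PTEC-like cells. The inducible Hspa1a stood at 1497, 1644 and 1894 CPM in macrophage-like and at 1153, 1872 and 1474 CPM in endothelial-like cells, 2 ranges that overlap. In PTEC-like cells it was at 20.2, 30.9 and 22.7 CPM. Hspa1b stood at 780, 847 and 873 CPM in macrophage-like and at 689, 1205 and 760 CPM in endothelial-like cells, where its mean was highest. In PTEC-like cells Hspa1b was at 12.4, 18.3 and 13.8 CPM. The inducible HSP70 genes were thus high in macrophage-like and endothelial-like cells. When each cell was thinned to 1000 UMIs, 1.76%, 3.01% and 1.86% of PTEC-like cells still had an Hspa1a UMI (7.47%, 16.0% and 7.54% before thinning), against 43.3%, 46.9% and 46.8% of macrophage-like cells. These shares leave out 628, 0 and 834 macrophage-like cells under 1000 UMIs, and the shares before thinning, over all macrophage-like cells, were 37.5%, 65.8% and 29.8%. The 10 macrophage markers, 33670 CPM on average in their own class, were at 486, 520 and 362 CPM in PTEC-like cells. The part of free RNA in the Hspa1a share was not tested, so Hspa1a at that level is not read as expression in PTEC-like cells. The same limit holds for Socs3, Gadd45b and Nr4a1, whose PTEC-like means were lower, at 7.12, 7.69 and 9.78 CPM.

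The remaining members were highest in other classes. For Fosb, Jund and Nr4a1, and for Hspe1 and Hspd1 in PTEC-like cells, the same class led in each library. Fosb was highest in urothelial-like cells at 1047, 1159 and 1174 CPM. Jund was highest in B lymphocyte-like cells at 923, 1415 and 1541 CPM, and Nr4a1 in monocyte-like cells at 1225, 1244 and 1073 CPM, where the mean of the next class, granulocyte-like, was 630 CPM. For the others, the class with the highest mean did not lead in every library. Jun had its highest mean in urothelial-like cells (2289, 2462 and 3417 CPM), below ascending limb-like cells in the WT library. Fos had it in fibroblast-like cells at 2110, 1723 and 3853 CPM, beside a mean of 2347 CPM in urothelial-like cells. The fibroblast-like lead rested on the WT library for Egr1 as well (1215, 1101 and 2223 CPM, beside a mean of 1467 CPM in principal-like cells) and for Klf4 (306, 138 and 1787 CPM, beside a mean of 595 CPM in monocyte-like cells). Atf3, a stress-induced relative of the AP-1 subunits, had a mean of 1697 CPM in intercalated-like and of 1688 CPM in urothelial-like cells. Klf2, a flow-responsive endothelial factor, stood at 1083, 1405 and 1341 CPM in endothelial-like cells and had a mean of 1159 CPM in granulocyte-like cells. Socs3 stood at 600, 808 and 621 CPM in endothelial-like cells and had a mean of 614 CPM in fibroblast-like cells. Klf6 had a mean of 1338 CPM in injured tubule-like and of 1315 CPM in intercalated-like cells, and Ier2 one of 718 CPM in natural killer-like and of 717 CPM in granulocyte-like cells. Gadd45g had its highest mean in ascending limb-like cells at 469, 520 and 785 CPM, Nr4a2 in natural killer-like cells at 420 to 446 CPM and Myc in injured tubule-like cells at 93.3 to 111 CPM. Egr2 did not pass a mean of 53.2 CPM and Egr3 one of 2.53 CPM in any class.

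**Figure D2:**
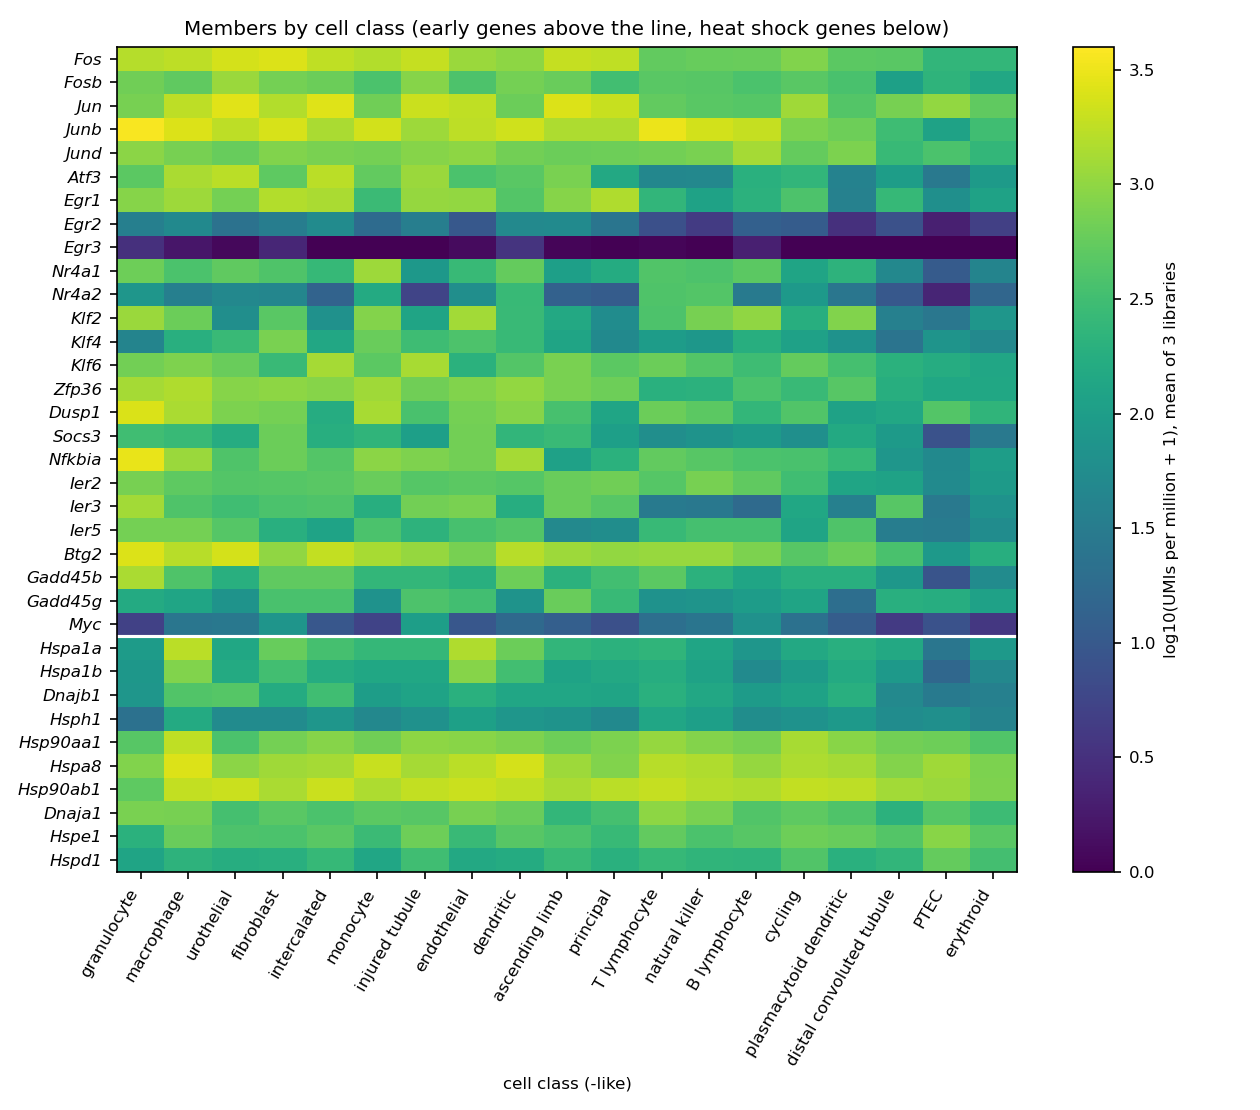
Level of each member (rows) in each cell class (columns), as log10 of the mean CPM over the 3 libraries plus 1, with early genes above the white line and heat shock genes below. The PTEC column is dark for most early genes and for Hspa1a and Hspa1b (mean of 24.6 and 14.9 CPM) and bright for Hspe1 and Hspd1, which have their highest means there (898 and 569 CPM).

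PTEC-like cells, the proximal tubule cells that make up most of the kidney cortex, were the lowest of the 19 classes for 17 members: Fos, Junb, Atf3, Egr2, Nr4a1, Nr4a2, Klf2, Zfp36, Socs3, Nfkbia, Ier2, Ier5, Btg2 and Gadd45b among the early genes and Hspa1a, Hspa1b and Dnajb1 among the heat shock genes. Of all 7437 genes, 8.69% were lowest there. PTEC-like cells were the highest class for Hspe1 (844, 888 and 961 CPM) and Hspd1 (529, 557 and 622 CPM), the mitochondrial chaperonin pair, and for 10.1% of all genes. The means of the next class, cycling-like, were 639 and 419 CPM, and the PTEC-like range did not reach them. The mitochondrial pair and the inducible HSP70 genes thus stood at opposite ends in this class.

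Within PTEC-like cells the early genes were not spread evenly. Thinned to 1000 UMIs, a PTEC-like cell held a median of 1 early UMI in each library, 37.9%, 34.6% and 44.9% of the cells held none, and the 10% of cells with the most early UMIs held 56.0%, 51.6% and 55.2% of them. In all, 1917, 0 and 1799 cells were below 1000 UMIs and left out. In granulocyte-like cells the median was 25, 25 and 27 early UMIs and no cell held 0, and the top 10% held 20.8%, 22.1% and 19.1% of the UMIs. Heat shock UMIs were even in PTEC-like cells, with a median of 4, 4 and 5 and a top 10% that held 21.6%, 21.7% and 21.4%. The clusters show where the early UMIs lay. The PTEC-like clusters led by Slc5a2, by Cyp2e1 and by Slc7a13 with medians of 11862, 9109 and 16463 UMIs per cell had early sums from 3865 to 5724 CPM in the 3 libraries. The other 3 PTEC-like clusters, with medians of 2131, 996 and 4494 UMIs, had early sums from 371 to 1136 CPM. The ranges of these sets of clusters did not overlap, while their heat shock sums ran from 3993 to 6542 CPM and from 3966 to 6432 CPM.

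The same clusters differed in Malat1, a long noncoding RNA that stays in the nucleus. It is no member and was chosen after its values were seen. Malat1 stood at 39341 to 61735 CPM in the 3 clusters rich in early RNA and at 1587 to 7326 CPM in the 3 poor ones. PTEC-like cells were therefore parted at 0.8% of UMIs from Malat1, between the levels of these sets of clusters, a value chosen after the data were seen. Of the cells, 4.53%, 4.89% and 3.20% lay between 0.6% and 1%, and 66.6%, 47.4% and 60.7% lay below 0.8%. At or above it, the early sum was 4753, 4217 and 5025 CPM, and below it 872, 821 and 534 CPM, a ratio of 5.45, 5.13 and 9.42. The heat shock sum was 4633, 4474 and 5837 CPM above and 4773, 4867 and 5993 CPM below, a ratio of 0.971, 0.919 and 0.974. The early sum thus differed with Malat1 in every library and the heat shock sum differed little.

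Among 18 early genes with a mean of at least 10 CPM in PTEC-like cells, 14 were at least 2-fold higher in the cells with Malat1 at or above 0.8%, in each library, and 9.09% of 7066 genes were. None of the 10 heat shock genes was, and the median ratio of all genes was 1.16, 1.14 and 1.23. The inducible Hspa1a and Hspa1b came nearest, with ratios from 1.81 to 2.03 and from 1.65 to 2.38 over the libraries. Jun stood at 1502, 1214 and 1847 CPM in the upper cells and at 132, 99.2 and 79.5 CPM in the lower. Klf4 stood at 105, 99.7 and 104 CPM against 6.41, 8.90 and 3.71 CPM, and Fosb at 310, 297 and 348 CPM against 19.6, 21.5 and 12.5 CPM. The ratios of these 3 genes were the widest, between 11.2 and 28.0, whereas Hspa8 had ratios from 1.01 to 1.06 and Dnaja1 from 1.04 to 1.12. Hspe1 was the reverse, at 737, 790 and 824 CPM above and 1048, 1105 and 1235 CPM below. Hspd1 and Hsp90ab1 were also lower above, with ratios from 0.859 to 0.882 and from 0.889 to 0.921. Depth per cell, Malat1 and the early genes moved together across these cells, and the part of depth or of cell integrity in the difference was not tested.

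**Figure D3:**
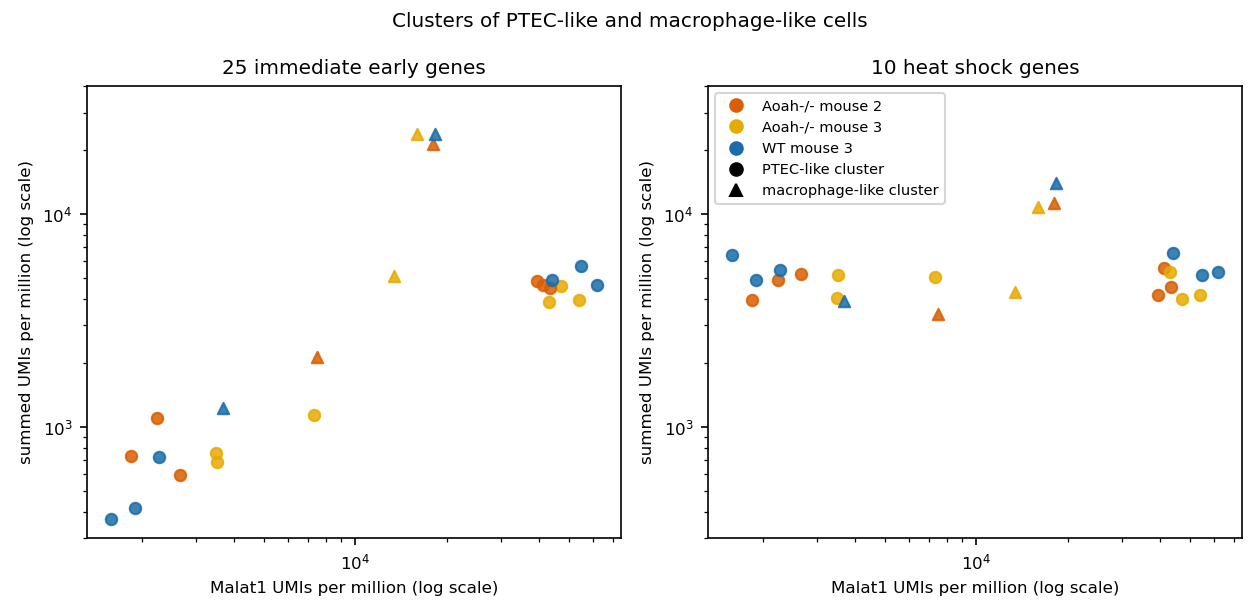
Summed early gene level (left) and heat shock gene level (right) against Malat1, all in CPM on log axes, for the 6 PTEC-like clusters (circles) and the 2 macrophage-like clusters (triangles) in each library (colour). Early levels of PTEC-like clusters fall into a low set, 371 to 1136 CPM, at low Malat1 and a high set, 3865 to 5724 CPM, at high Malat1, while their heat shock levels stay between 3966 and 6542 CPM throughout.

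Macrophage-like cells also held a pair of clusters that differed in their early sums, though in Aoah-/- mouse 3 their Malat1 levels lay close together. The larger one (811, 1163 and 615 cells, median of 4696 UMIs) had early sums of 21309, 23714 and 23827 CPM. The other (774, 200 and 1001 cells, median of 737 UMIs) had 2136, 5130 and 1233 CPM, with Malat1 at 7486, 13417 and 3687 CPM against 17892, 15953 and 18289 CPM. Here the heat shock sum moved with the early sum, at 3409, 4295 and 3910 CPM against 11322, 10774 and 14020 CPM. The PTEC marker Slc34a1 stood at 1110, 2161 and 679 CPM in the cluster of small cells and at 365, 309 and 408 CPM in the other. The macrophage marker C1qa stood at 3363, 1831 and 3407 CPM against 4366, 4487 and 4435 CPM. The part of PTEC RNA was not tested. Aoah-/- mouse 3, whose lowest barcode held the most UMIs, had the fewest cells of the small kind. Parted at the same 0.8%, early sums were 22529, 25873 and 25765 CPM above and 10154, 15278 and 9206 CPM below. Here 12.3%, 13.8% and 9.78% of the cells lay between 0.6% and 1%. The smaller cluster of Aoah-/- mouse 3, at 13417 CPM of Malat1, stood above the cut as a whole. Of cells that stayed unnamed (2503, 2979 and 970 cells), those led by Lcn2, Wfdc2 and Clu had early sums of 27406, 24690 and 26506 CPM and those led by Saa3 and Fn1, almost all from Aoah-/- mouse 2 (1407, 27 and 78 cells), had 26513, 23587 and 24348 CPM.

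The comparison of genotypes rests on 2 Aoah-/- libraries and 1 WT library, so genotype and library cannot be told apart. In edgeR's quasi-likelihood test the spread comes from the 2 Aoah-/- libraries alone, the WT library is assumed to vary like them, and the p-values measure the spread between these libraries only. Adjustment was by Benjamini-Hochberg over all genes tested in a class, with a threshold of 0.05. In the sum over all kept cells, early genes were higher in both Aoah-/- libraries, at 10703 and 10516 CPM against 8722 CPM (log2 ratio 0.28, SD 0.02, n = 2), and 20 of 25 members were higher in both against 47.9% of 8003 genes with at least 10 CPM in each library. Heat shock genes were lower, at 5180 and 5651 CPM against 6313 CPM (log2 ratio -0.22, SD 0.09), and 7 of 10 were lower in both against 38.4% of genes. In these counts and the like counts by class below, the members had no floor of 10 CPM. PTEC-like cells supplied 41.4%, 37.5% and 58.4% of the UMIs. With every class weighted by its share in the WT library, the early sum was 8121 and 7881 CPM against 8722 CPM (log2 ratio -0.12, SD 0.03), and the heat shock sum 5079 and 5270 CPM against 6313 CPM (log2 ratio -0.29, SD 0.04). The sign of the early difference thus turned with equal weights and that of the heat shock difference did not.

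Class by class, the early sum was lower in both Aoah-/- libraries in 12 of 19 classes, higher in 3 and split in 4, with log2 ratios from -0.75 to 0.79 and a median of -0.07. The heat shock sum was lower in both in 14 classes, higher in 1 (fibroblast-like, log2 ratio 0.17) and split in 4, with log2 ratios from -0.38 to 0.17 and a median of -0.22. The median ratio of the heat shock members lay below that of all genes in 17 of 19 classes, and that of the early members in 9. In all, edgeR called 43 of 452 pairs of early gene and class and 26 of 190 pairs of heat shock gene and class, against 1.76% of all pairs of gene and class, 0.846% higher and 0.911% lower. These 69 pairs came from 26 members in 15 classes. Of these, 45 were lower and 24 higher in Aoah-/- mice. Leaving the parts by Malat1 aside, 8 of the 69 were called under each of the alternatives with a value, up to 9 per pair: Hsph1 in T lymphocyte-like, Klf4, Klf2, Myc, Hspa1a and Hspa1b in fibroblast-like, and Dnaja1 and Nfkbia in granulocyte-like cells. Of these, Klf2, Hspa1a and Hspa1b in fibroblast-like and Dnaja1 in granulocyte-like cells were not called with Malat1 under 0.8%. The number of members called under these alternatives was 2 to 17 in T lymphocyte-like, 5 to 11 in fibroblast-like and 2 to 11 in granulocyte-like cells. The highest count came with 277 of 11175 genes called in T lymphocyte-like and 264 of 8659 in granulocyte-like cells. In fibroblast-like cells it came with 1068 of 10032 and with 1673 of 10728 genes. In each of the other classes at least 1 alternative called 0 members. Some of these alternatives called no gene in the class, as in ascending limb-like cells with the members kept among the clustering genes.

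Dnaja1 and Hspa8 were the most uniform members. Both Aoah-/- libraries lay below the WT library in 19 of 19 classes for each gene, which 0.0403% of 7437 genes did. The third such gene was Erdr1, named here after its values were seen. Counting at least 15 classes, 1.38% of genes were lower, among the members these 2 alone (Jund and Hsph1 reached 14), and 2.76% of genes were higher, among them no member (Nr4a2 reached 14). Dnaja1 (chr4:40722150-40737149) stood at 374, 366 and 602 CPM in PTEC-like, 695, 616 and 850 CPM in macrophage-like, 858, 962 and 1132 CPM in T lymphocyte-like and 621, 506 and 1149 CPM in granulocyte-like cells. Hspa8 (chr9:40800984-40810087) stood at 1250, 887 and 1553 CPM in PTEC-like, 2487, 2277 and 2906 CPM in macrophage-like and 2160, 2178 and 2755 CPM in dendritic-like cells. In the edgeR fits, whose scaling differs, their log2 fold changes were below 0 in all 19 classes as well, from -1.20 to -0.22 for Dnaja1, with 5 classes past the threshold, and from -0.72 to -0.13 for Hspa8, with 3. The 19 classes come from the same 3 mice and are not 19 replicates.

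**Figure D4:**
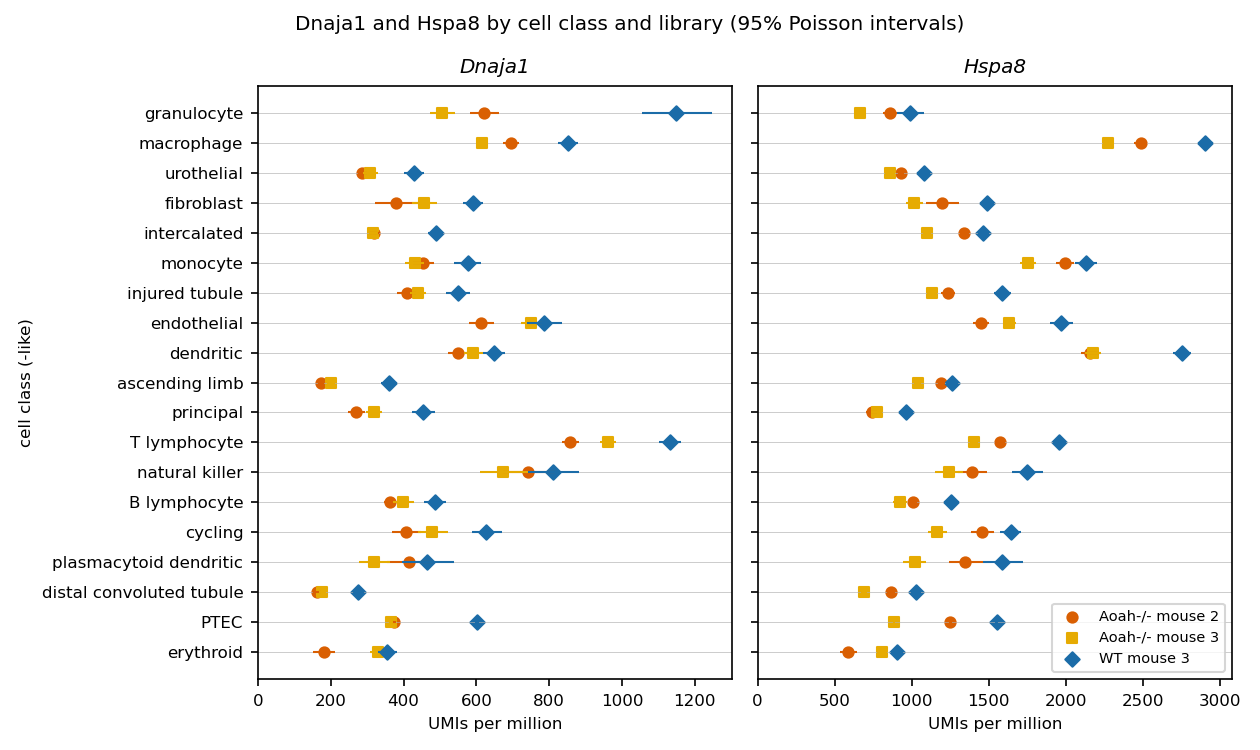
Dnaja1 (left) and Hspa8 (right) in CPM for the 19 cell classes and 3 libraries, with exact Poisson 95% intervals as bars, which cover counting error only. The WT point lies to the right of both Aoah-/- points in every class of both panels. In granulocyte-like cells Dnaja1 is at 1149 CPM in the WT library and at 621 and 506 CPM in the Aoah-/- libraries.

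In PTEC-like cells, few genes passed the threshold in edgeR and no member did: it called 0 of 34 members tested and 0.0919% of 14152 genes. At an unadjusted p under 0.05 stood 23 members, against 26.2% of genes, and DESeq2 called 12 members, against 3.40%. The nearest were Socs3 (10.1, 8.84 and 2.40 CPM; log2 fold change 1.98, adjusted p = 0.0508, edgeR) and Dnaja1 (log2 fold change -0.71, adjusted p = 0.0513, edgeR). The sum of early genes differed little (log2 ratio -0.10, SD 0.08), yet 17 of 25 members were higher in both Aoah-/- libraries against 33.5% of 6742 genes with at least 10 CPM in each library. The members had no such floor, and 18 of 25 had a mean of at least 10 CPM in this class. The median ratio of the members was 0.45. The abundant members pulled the sum the other way. Jun stood at 1029, 865 and 1258 CPM, Jund at 319, 320 and 501 CPM, Dusp1 at 431, 339 and 514 CPM and Fosb at 210, 211 and 236 CPM, each lower in both Aoah-/- libraries. On the other side stood Fos at 258, 239 and 192 CPM, Zfp36 at 152, 169 and 89.9 CPM, Gadd45g at 199, 202 and 122 CPM, Egr1 at 73.6, 69.2 and 38.5 CPM and the rare Nr4a1 at 16.1, 9.05 and 4.22 CPM. Klf4 stood at 71.0, 71.3 and 70.5 CPM. Of the heat shock genes 8 of 10 were lower in both Aoah-/- libraries, against 50.3% of genes (log2 ratio of the sum -0.34, SD 0.02), Hsp90ab1 at 1021, 1151 and 1260 CPM and Hsp90aa1 at 548, 626 and 739 CPM among them.

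**Figure D5:**
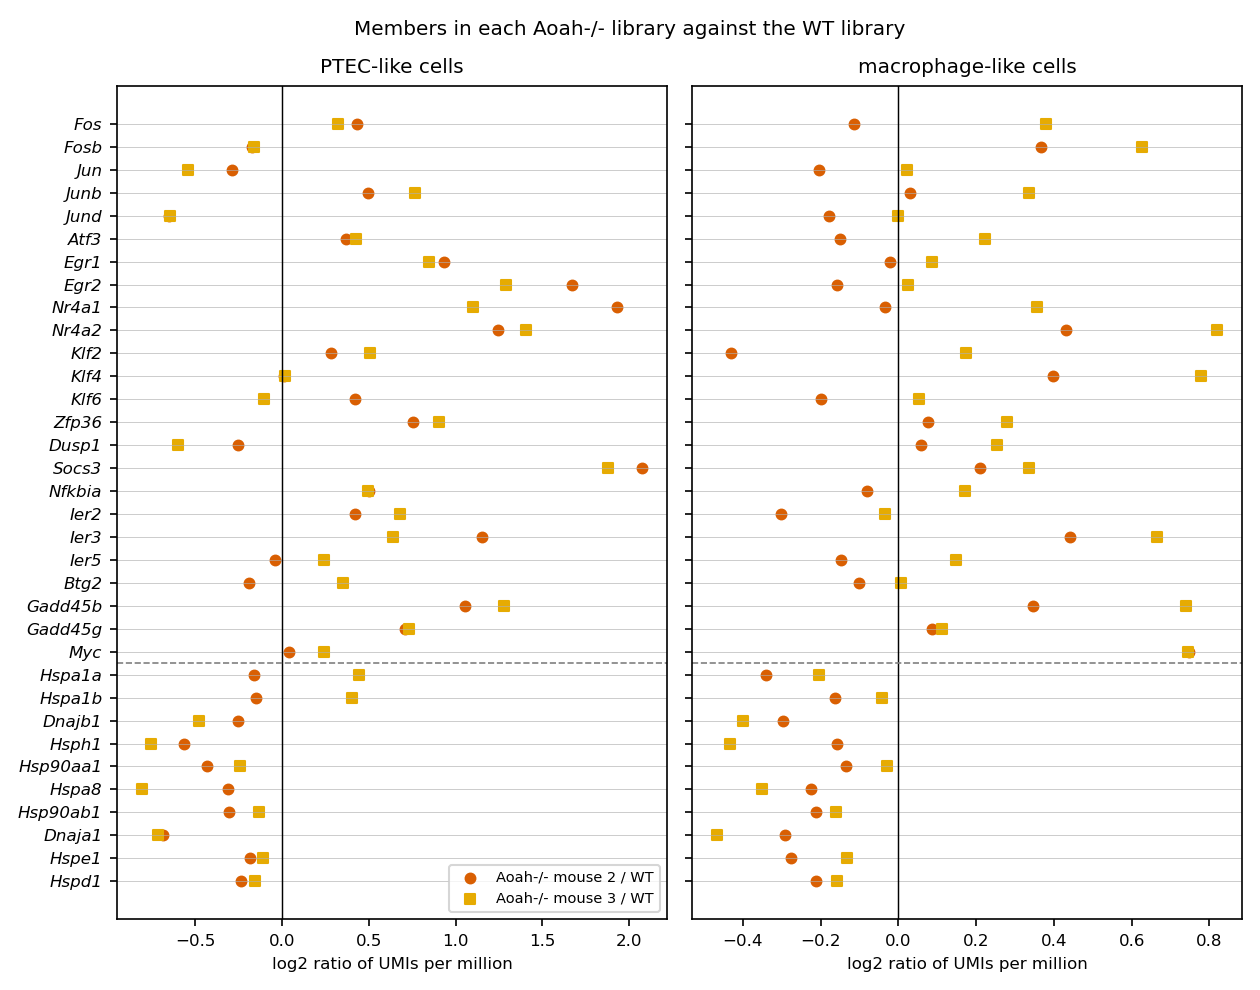
Log2 ratio of each Aoah-/- library to the WT library, in CPM, for the members in PTEC-like (left) and macrophage-like cells (right), with early genes above the dashed line and heat shock genes below; Egr3 (fewer than 10 UMIs in every library of both classes) is left out. In PTEC-like cells Socs3, Nr4a1 and Egr2 lie farthest to the right and Jund, Dnaja1 and Hspa8 to the left, and in macrophage-like cells all 10 heat shock genes lie left of 0 in both libraries.

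The markers of 5 other cell kinds were higher in these libraries and those of fibroblasts lower. Within PTEC-like cells, the markers of macrophages summed to 486, 520 and 362 CPM (10 of 10 higher in both Aoah-/- libraries), those of granulocytes to 22.1, 26.5 and 4.60 CPM (7 of 7), those of endothelium to 9.30, 21.0 and 6.42 CPM (9 of 9), those of T lymphocytes to 5.34, 9.70 and 2.71 CPM (8 of 8) and those of injured tubule to 1118, 996 and 419 CPM (12 of 12). Those of fibroblasts summed to 1.59, 2.29 and 7.94 CPM (7 of 10 lower in both). None of these markers was at 0 in all 3 libraries. Their part in the early gene values was not tested. Parted by Malat1, the genotype ratio of the early sum was -0.16 (SD 0.12) at or above 0.8% and 0.67 (SD 0.06) below it. In the upper PTEC-like cells, edgeR called 9 members against 2.87% of genes: Socs3 (log2 fold change 2.15), Gadd45b (1.22), Egr1 (0.88), Zfp36 (0.78), Gadd45g (0.74) and Nfkbia (0.54) rose, and Dnaja1 (-0.70), Hsph1 (-0.70) and Jund (-0.69) fell, with adjusted p from 0.00856 to 0.0495. In the lower cells it called 4 members against 0.345%: Zfp36 (1.26), Fos (1.11) and Junb (0.87) rose and Dnaja1 (-0.74) fell, with adjusted p from 0.0277 to 0.0478. Zfp36 and Dnaja1 were called in both parts, in the same direction.

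In macrophage-like cells, 6 heat shock genes fell and no early gene passed the threshold. edgeR called 6 of 34 members against 3.29% of genes, all 6 of them heat shock genes lower in Aoah-/- mice, against 2.09% of genes lower: Dnaja1 (log2 fold change -0.56, adjusted p = 0.00493), Dnajb1 (-0.53, 0.008), Hspa8 (-0.47, 0.00693), Hsph1 (-0.47, 0.0451), Hspa1a (-0.45, 0.00885) and Hsp90ab1 (-0.37, 0.0367). All 10 heat shock genes were lower in both Aoah-/- libraries, against 18.7% of 6640 genes, with Dnajb1 at 402, 374 and 494 CPM, Hsph1 at 160, 132 and 178 CPM, Hsp90ab1 at 1732, 1796 and 2007 CPM and Hsp90aa1 at 1706, 1837 and 1873 CPM. Hspe1 at 535, 591 and 648 CPM (-0.39, adjusted p = 0.0544, edgeR) and Hspd1 at 201, 208 and 233 CPM (-0.37, adjusted p = 0.0926, edgeR) had log2 fold changes of like size and missed the threshold. On the CPM scale, the median of all genes was 0.16 higher on the log2 scale in Aoah-/- mice in this class, as it was by 0.12 in granulocyte-like and 0.24 in erythroid-like cells, and relative to it the heat shock members (median -0.24) were lower still. As a mean over cells in place of summed UMIs, the log2 ratio of the heat shock sum was 0.21 in place of -0.22. Other markers moved in this class too. Those of granulocytes stood at 165, 180 and 41.4 CPM (6 of 7 higher in both) and of endothelium at 55.0, 85.1 and 33.9 CPM (8 of 9). Those of T lymphocytes stood at 67.09, 78.39 and 29.96 CPM (7 of 8) and of injured tubule at 1133, 1576 and 802 CPM (9 of 12). PTEC markers stood at 6796, 6452 and 7745 CPM (8 of 17 lower and 3 higher in both). The part of these markers was not tested. With DESeq2, without the 10% highest doublet scores, or with the members kept among the clustering genes, 0 members were called, beside 34, 95 and 152 of all genes. The log2 fold changes of the 6 genes then still ran from -0.59 to -0.34. Before these changes, 21 members were at an unadjusted p under 0.05 in edgeR, beside 1819 of 11651 genes. Of the early genes, 11 of 25 were higher in both against 60.9% of genes, with Fos at 1514, 2130 and 1638 CPM, Atf3 at 1224, 1583 and 1357 CPM and Egr1 at 1137, 1225 and 1154 CPM, the WT value between the others in each. With Malat1 at or above 0.8%, 4 members fell (Dnajb1, Hspa8, Hspa1a and Hsp90ab1) against 0.947% of genes, and below it 2 (Dnaja1 and Hsph1) against 2.47%.

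In granulocyte-like cells, the named class with the highest early sum, edgeR called 9 members against 2.71% of genes. Dnaja1 fell most firmly (log2 fold change -1.20, adjusted p = 1.33e-11), and Hspa8 fell beside it (-0.55, adjusted p = 0.0289). The inducible genes went the other way: Hspa1b stood at 102, 121 and 16.5 CPM (162, 209 and 8 UMIs; log2 fold change 2.58, adjusted p = 7.37e-08) and Hspa1a at 98.0, 147 and 37.0 CPM (155, 254 and 18 UMIs; 1.55, adjusted p = 3.35e-04). The other J-domain gene, Dnajb1, missed the threshold (-0.28, adjusted p = 0.767, edgeR). Nfkbia (-0.69), Nr4a1 (-0.64) and Klf2 (-0.52) fell, and Gadd45g (0.96) and Atf3 (0.61) rose, with adjusted p from 3.87e-04 to 0.0428 in edgeR. The calls of Dnaja1 and Nfkbia held under 9 of 9 alternatives. Of these 9, Nr4a1 was called under 6, Klf2 under 5, Atf3 under 4 and Hspa8 under 3. Hspa1b was called under 7 of 8 with a value, and Hspa1a and Gadd45g under 6 of 8. Both inducible genes were lost with the common UMI floor. Macrophage markers stood in granulocyte-like cells at 1053, 1004 and 572 CPM and endothelial markers, a class rich in Hspa1a, at 49.97, 59.16 and 18.52 CPM. PTEC markers stood there at 7441, 8124 and 6303 CPM (14 of 17 higher and 2 lower in both Aoah-/- libraries). The part of these markers was not tested.

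In ascending limb-like, principal-like and distal convoluted tubule-like cells, the early sum was lower in both Aoah-/- mice. In ascending limb-like cells it was 12647, 11356 and 20155 CPM (log2 ratio -0.75, SD 0.11), and 8 members fell, against 0.367% of genes called and 0.168% lower: Klf4 (log2 fold change -1.64), Jund (-1.39), Ier3 (-1.29), Jun (-0.96), Dnaja1 (-0.90), Fosb (-0.77), Dusp1 (-0.73) and Fos (-0.65), with adjusted p from 0.00787 to 0.0488 in edgeR. Jun stood at 2060, 1827 and 3907 CPM, Jund at 403, 377 and 1059 CPM and Fos at 1536, 1631 and 2566 CPM, the WT mouse far above both others. Thinned to 1000 UMIs, the median cell held 8, 8 and 7 early UMIs, 11.0%, 5.47% and 14.3% of the cells held none, and the 10% of cells with the most held 32.5%, 31.4% and 43.4%, so the higher WT sum was not seen in the median cell. With the members kept among the clustering genes, edgeR called 0 members and 0 of all 12634 genes. The direction differed with Malat1, where 5.94%, 9.39% and 4.36% of the cells lay between 0.6% and 1%. At or above 0.8% the early sum was 13698, 12105 and 24182 CPM and edgeR called 11 members, all lower, against 0.558% of genes. Below 0.8% it was 6454, 7123 and 3925 CPM and edgeR called 10 members, all higher, against 1.10%, with Fos at a log2 fold change of 0.95, Jun at 0.73 and Atf3 at 1.51. Macrophage markers in this class stood at 910, 1284 and 740 CPM. PTEC markers stood there at 4583, 9206 and 8087 CPM (3 of 17 higher and 4 lower in both Aoah-/- libraries).

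Principal-like cells, the sodium and water channel cells of the collecting duct, had early sums of 10761, 11006 and 15489 CPM (log2 ratio -0.51, SD 0.02), and 9 members fell against 1.31% of genes called and 0.394% lower: Klf4 (31.1, 36.2 and 81.7 CPM; log2 fold change -1.21), Klf2 (-1.16), Dnajb1 (-0.77), Fosb (-0.73), Atf3 (-0.71), Jund (-0.63), Fos (-0.62), Dnaja1 (-0.56) and Ier2 (-0.55), with adjusted p from 1.06e-05 to 0.0492 in edgeR. With DESeq2, without the highest doublet scores, at resolution 2 or with the members kept among the clustering genes, 0 members were called. Of all genes, 4, 0, 9 and 34 were called under these settings. Before these changes, 18 members were at an unadjusted p under 0.05 in edgeR, beside 887 of 10408 genes. Distal convoluted tubule-like cells had 3818, 3741 and 5317 CPM (log2 ratio -0.49, SD 0.02), and Jun alone fell (-1.12, adjusted p = 0.0202, edgeR) against 0.104% of genes. Parted at 0.8% of Malat1, their ratio was -0.67 above and 0.33 below, and the median thinned cell held 2, 3 and 1 early UMIs. Between 0.6% and 1% lay 7.13%, 11.5% and 6.44% of these cells. In intercalated-like cells Hsph1 (-0.70) and Dnaja1 (-0.58) fell against 1.88% of genes, with adjusted p of 0.00353 and 0.00307 in edgeR. Each was called under 5 of 9 alternatives, and without the highest doublet scores 0 of 11750 genes were called. This class joins a cluster led by Atp6v1g3 and Slc26a4 (222, 449 and 113 cells) and one led by Atp6v1g3 and Aqp6 (183, 296 and 172 cells). Their mixture differed between the libraries, and its part was not tested. Injured tubule-like cells showed Socs3 (146, 112 and 61.9 CPM; log2 fold change 1.03, adjusted p = 1.46e-06, edgeR), Hspa1a (0.59) and Hspa1b (0.54) higher and Klf4 (-0.60) lower, 4 members against 5.67% of genes.

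Monocyte-like cells were the clearest class with higher early genes. Their sum was 16310, 18252 and 13998 CPM (log2 ratio 0.30, SD 0.11), and edgeR called 7 members against 1.17% of genes. Egr1 (377, 307 and 174 CPM; log2 fold change 0.94, adjusted p = 2.87e-04), Socs3 (260, 269 and 152 CPM; 0.77, 0.00132), Ier3 (0.66), Atf3 (0.63) and Gadd45b (0.54) rose, while Hsph1 (35.2, 29.6 and 75.7 CPM; -1.26, adjusted p = 5.56e-04) and Hspd1 (-0.57) fell. Without the highest doublet scores, 0 members and 4 of all 8749 genes were called there. Granulocyte markers stood in these cells at 1120, 1629 and 567 CPM. PTEC markers stood there at 5492, 5508 and 8854 CPM (13 of 17 lower and 4 higher in both Aoah-/- libraries). The part of these markers was not tested. In T lymphocyte-like cells Hsph1 (111, 111 and 186 CPM; -0.76, adjusted p = 0.0141, edgeR) and Jun (-0.58) fell against 0.343% of genes. Macrophage markers stood there at 387, 436 and 178 CPM (10 of 10 higher in both) and injured tubule markers at 320, 377 and 188 CPM (9 of 12). PTEC markers stood at 9508, 11556 and 11905 CPM (10 of 17 lower and 5 higher in both). The part of these markers was not tested. The T lymphocyte-like class joins a cluster led by Ccl5 and Nkg7 (1624, 1460 and 692 cells) and one led by Icos and Cd3g (488, 650 and 586 cells). Their heat shock sums were 6248, 6384 and 7708 CPM against 6651, 7343 and 9482 CPM. Their early sums were 8573, 9506 and 10127 CPM against 15034, 15895 and 16326 CPM. Their mixture differed between the libraries, and its part was not tested. In natural killer-like cells Hsph1 (-1.15) and Hspa1a (-1.11) fell against 0.753%, each called under 5 of 9 alternatives. Before thinning, an Hspa1a UMI was found in 7.69%, 14.2% and 6.70% of these cells. With each cell thinned as for PTEC-like cells, the shares were 5.03%, 6.79% and 5.15%, the WT value between the others. The lower Hspa1a level was thus not seen as a lower share of cells in both Aoah-/- libraries. Hspa8 (-0.41, adjusted p = 0.00553, edgeR) fell in dendritic-like cells, where 1.86% of genes were called, and Hspa1a rose (1.06, adjusted p = 0.0409, edgeR) in plasmacytoid dendritic-like cells, where 0.966% were. Its values there, 366, 82.8 and 106 CPM, put Aoah-/- mouse 3 below the WT mouse.

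The remaining classes were less even between libraries. Fibroblast-like cells had 6 members called against 7.62% of genes: Myc (log2 fold change -3.59), Klf4 (-3.11), Klf2 (-1.98) and Fos (-1.09) fell and Hspa1b (2.43) and Hspa1a (684, 905 and 160 CPM; 2.24) rose, with adjusted p from 3.40e-04 to 0.0294 in edgeR. This class joins a cluster led by Rgs5 and Acta2 (52, 120 and 23 cells) and one led by Dcn and Col3a1 (31, 176 and 362 cells), whose mixture differed between the libraries. Erythroid-like cells had 7 members called, all higher, against 1.57% of genes and 1.35% higher, with Atf3 (3.35) at the top. Their early sum was 2000, 5104 and 2048 CPM, so Aoah-/- mouse 3 alone stood apart. Macrophage markers in these cells were at 557, 3522 and 354 CPM. PTEC markers stood there at 25313, 44333 and 34825 CPM, beside 63923 CPM on average in PTEC-like cells. The part of these markers in the erythroid-like values was not tested. In cycling-like cells Socs3 (1.08) and Nr4a2 (0.93) rose and Jun (-0.85) and Dusp1 (-0.80) fell, against 3.24% of genes. No member was called in B lymphocyte-like (0.321% of genes), endothelial-like (0.128%) or urothelial-like cells (0%) by edgeR or, among the alternatives, by DESeq2. At an unadjusted edgeR p under 0.05 stood 5, 6 and 5 members, beside 902 of 9980, 946 of 10942 and 579 of 11173 genes. Without the gene filter, edgeR called 2, 5 and 2 members, the most under any alternative, beside 214 of 15797, 241 of 15959 and 284 of 16905 genes. Over the classes, every call of Dnaja1 (5), Hsph1 (5), Jun (4), Klf4 (4), Hspa8 (3) and Fos (3) was lower and every call of Socs3 (4) and Hspa1b (3) higher, whereas Hspa1a was higher in 4 classes and lower in 2.

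Genes related to the members were read from 2 further lists, 45 other early genes and 42 other chaperones. The sum of the other chaperones was lower in both Aoah-/- libraries in 15 of 19 classes and higher in both in none (median log2 ratio -0.18), and that of the other early genes lower in 9 and higher in 5 (median -0.03). edgeR called 19 of 773 pairs of chaperone and class, 17 lower and 2 higher, and 61 of 798 pairs of early gene and class, 21 lower and 40 higher, beside 1.76% of pairs over all genes. In PTEC-like cells it called none of either list. In macrophage-like cells 4 of 41 chaperones fell, Chordc1 (-0.60), the HSP90 cochaperone Stip1 (-0.53) and the endoplasmic reticulum HSP70 Hspa5 (-0.50) among them, and none rose. There 7 of 43 other early genes rose, the chemokine Cxcl1 (0.85), Hes1 (0.69), Id3 (0.63) and the phosphatases Dusp5 (0.56) and Dusp6 (0.53) among them, and none fell.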

How the data were processed

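Single-cell RNA of 3 FA kidneys (2 Aoah-/- and 1 WT) was captured with a Chromium 3′ kit. The deposited values were raw UMI counts per gene and barcode, made by the authors with Cell Ranger and STAR against mm10; the file headers gave Cell Ranger 6.1.2 and the submitters' processing notes 3.1.0, with Seurat 4.2.0 for later steps. How reads of near-identical copies were shared out is not given in the sources used here. Depth was 158551992 to 167222984 UMIs per library. Intervals on counts (exact Poisson, 95%) cover counting error only.

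A barcode was left out when it had fewer than 200 genes or when mitochondrial transcripts made up over 50% of its UMIs. Cells of all libraries were clustered together (scanpy 1.11.5, leidenalg 0.10.2, resolution 1) without the members and the related genes, and clusters were named from marker genes. Scrublet called 544, 0 and 201 cells (2.55%, 0% and 1.10%) as doublets; these calls were not used and no cell was removed. UMIs were summed per library and class with at least 50 cells in each library, and levels are per 1000000 UMIs of that class (CPM). Log2 ratios of sums set the mean of the 2 Aoah-/- libraries against the WT library and had no test.

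Genes were tested per class with edgeR 4.0.16 (R 4.3.3; TMM, filterByExpr, quasi-likelihood test, Benjamini-Hochberg over all genes tested, two-sided) and, as an alternative, DESeq2 1.42.0; the edgeR fit was tested on simulated data. The alternatives changed the cell filters, doublets, clustering, scaling, gene filter and tool; the parts by Malat1 and the fits of the other 17 classes were added after the data were seen. All 35 members could be named, with values in every library where the mean was at least 100 CPM in all kept cells or where the gene was called in PTEC-like or macrophage-like cells; of the related lists, up to 5 genes called in these classes were named. The members and lists were chosen with earlier results of these data known. Promoters came from RefSeq (GRCm38.p6) and gene positions from the GRCm38 annotation.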

Additional observations from a re-analysis of the deposited data

Results flagged for a closer look

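The results here moved in opposite directions in 2 kinds of cells, with both Aoah-/- libraries on one side of the WT library in one kind and on the other side in the other, or with calls of opposite sign in edgeR; none of these differences between classes was tested, and the classes come from the same 3 mice. The early sum had a log2 ratio of 0.30 in monocyte-like and -0.75 in ascending limb-like cells, and of -0.16 in PTEC-like cells with Malat1 at or above 0.8% of UMIs and 0.67 in those below. Parted in the same way, the ascending limb-like ratio was -0.91 above and 0.79 below. Of single genes, Hspa1a had a log2 fold change of 2.24 in fibroblast-like and -1.11 in natural killer-like cells. The natural killer-like call held under 5 of 9 alternatives. Before thinning, the share of those cells with an Hspa1a UMI was lowest in the WT library (7.69%, 14.2% and 6.70%). After thinning to equal depth, the WT share lay between those of the Aoah-/- libraries (5.03%, 6.79% and 5.15%). Atf3 had 3.35 in erythroid-like and -0.71 in principal-like cells, Ier3 had 1.66 in erythroid-like and -1.29 in ascending limb-like cells, Klf2 had 1.66 in erythroid-like and -1.98 in fibroblast-like cells, and Nr4a1 had 1.54 in erythroid-like and -0.64 in granulocyte-like cells. Of 9 alternatives, 6 kept the erythroid-like call of Atf3, 5 that of Ier3, 3 that of Klf2 and 5 that of Nr4a1. In the other class of each gene 4, 4, 9 and 6 alternatives kept the call, in the same order. The erythroid-like values stood apart in Aoah-/- mouse 3 alone.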

How the results depend on the processing

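The list levels and the counts of called members in PTEC-like and macrophage-like cells were recomputed under each alternative, and the cause of each shift was not tested. The early log2 ratio in PTEC-like cells (-0.10) was 0.21 with at most 20% mitochondrial UMIs, -0.19 at resolution 2, 0.25 as a per-cell mean, 0.45 as the median of members and 0.67 with Malat1 under 0.8%; leaving out either Aoah-/- library gave -0.16 to -0.05. The heat shock ratio there (-0.34) was -0.30 with at most 20% mitochondrial UMIs and with mitochondrial genes out of the total, -0.32 at resolution 2, -0.31 with Malat1 under 0.8%, and -0.27 as a per-cell mean and as the median of members; leaving out a library gave -0.36 to -0.33. The early ratio in macrophage-like cells (0.09) was 0.47 with Malat1 under 0.8% and 0.67 as a per-cell mean, with -0.05 to 0.22 when a library was left out, and -0.09 with median-of-ratios scaling. The heat shock ratio there (-0.22) was -0.29 with at most 20% mitochondrial UMIs, -0.35 with at least 500 genes, -0.36 with the common UMI floor, -0.25 without the 10% highest Scrublet scores and at resolution 2, -0.19 with members kept among the clustering genes, -0.33 and -0.11 with Malat1 at or above and under 0.8%, -0.27 with mitochondrial genes out of the total, -0.40 with median-of-ratios scaling, -0.24 as the median of members and 0.21 as a per-cell mean; leaving out a library gave -0.23 to -0.21. Members called in PTEC-like cells (0) became 14 without the gene filter, 12 with DESeq2, 10 with the UMI floor, 7 with at least 500 genes, without the highest Scrublet scores and with members kept among the clustering genes, and 9 and 4 with Malat1 at or above and under 0.8%. All genes called there rose as well, from 13 to 1101, 481 and 403 without the gene filter, with DESeq2 and with the UMI floor, 292, 160 and 240 under the next 3 settings, and 392 and 42 in the parts by Malat1. Members called in macrophage-like cells (6) became 10 without the gene filter and with at least 500 genes, 2 with Malat1 under 0.8%, and 0 with DESeq2, without the highest Scrublet scores and with members kept among the clustering genes. All genes called there went from 383 to 597, 246, 229, 34, 95 and 152 under these settings, in this order. Of 755 values of the 69 calls under alternatives, 456 kept direction and side of the threshold, 287 kept direction only and 12 changed sign, each with Malat1 under 0.8%. In ascending limb-like cells these were Klf4 1.59, Fosb 1.35, Fos 0.95, Jun 0.73, Ier3 0.31, Dusp1 0.28 and Jund 0.21. In cycling-like cells they were Jun 0.97 and Dusp1 0.07, and in principal-like cells Klf2 0.33, Dnajb1 0.26 and Atf3 0.11. Cells under 0.8% numbered 449, 287 and 232 in the ascending limb-like class. They were few in the cycling-like (54, 42 and 63) and principal-like classes (14, 38 and 14). No paired analysis was possible because the groups share only 1 replicate number. Calls without 1 Aoah-/- library could not be tested, since no residual degrees of freedom remain.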
